A study of Homo sapiens with 8 samples.

Results

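The 51 genes described here encode the machinery that licenses replication origins and copies DNA: the origin recognition complex, the licensing loaders and their inhibitor, the MCM2-7 helicase, the factors that turn it into the active CMG helicase, the 3 replicative polymerases, the sliding clamp and its loader, the single-strand binding protein RPA, the enzymes that finish the lagging strand, and ribonucleotide reductase with thymidylate synthase. They were chosen by function as a fixed list of symbols, but with earlier results of these data known. All 51 were found among the 58051 genes of the count table. PC3 cells, a widely used line derived from human prostate cancer, were sequenced carrying after lentiviral delivery either a hairpin without a human target (shScramble, 4 samples) or the hairpin sh2 against IER5L (shIER5L, 4 samples). Both groups went through the same puromycin selection, and each sample was a separate plate. The study asked which transcripts change upon IER5L silencing, and reported DNA replication among the functions enriched in the changes. A single hairpin was sequenced in a single line, and nothing states that the plates came from separate transductions, so that p-values measure the spread between these plates only.

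Origins are licensed in G1, when ORC, CDC6 and CDT1 load the MCM2-7 ring onto DNA in an inactive form, and geminin later blocks CDT1 so that no origin is licensed again in the same cycle. In S phase CDC45 and the GINS complex join MCM2-7 to form the CMG helicase, polymerase alpha lays down primers, polymerase epsilon extends the leading strand and polymerase delta the lagging strand, both helped by the PCNA clamp. Many of these genes are transcribed late in G1 under the control of E2F factors, and their transcripts are commonly read as a sign of cycling cells. In RNA from whole cultures, fewer cells in S phase and less of a transcript per cell cannot be told apart.

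Total counts on genes ran from 21512128 to 24662190 per sample. IER5L itself was at 4.82 ± 1.51 CPM (SD, n = 4; CPM are counts after scaling each library by TMM to the same size) in shScramble and 2.28 ± 0.760 (SD, n = 4) in shIER5L, a difference of -1.08 on the log2 scale whose adjusted p was 0.0212 by edgeR's quasi-likelihood test and rose to 0.0937 without shScramble replicate 2, to 0.0780 without shScramble replicate 3 and to 0.0891 without shIER5L replicate 3. IER5L had only 29 to 154 counts per sample. Exons of IER5L-AS1 and another gene on the opposite strand cover 39.2% of its exon bases, and counting did not use the strand. Those overlapping genes together held a mean of 0.5 counts. The 6 genes listed for PC3 and epithelial cells, KRT8, KRT18, KRT19, EPCAM, CDH1 and VIM, all passed the filter on low counts. CDH1 did so at only 1.09 CPM in shScramble, and VIM, which is not an epithelial marker, was at 538.6 CPM. KLK3 and KLK2, targets of the androgen receptor, were at 0 counts in every sample. The 6 fibroblast markers summed to between 13.6 and 15.1 CPM in shScramble and between 17.6 and 19.9 CPM in shIER5L. None of the 6 was at 0 in all samples, 4 of them were tested and all 4 were higher, 2 with an unadjusted p under 0.05 and 0 after adjustment. The 5 leukocyte and endothelial markers summed to 9.07 to 10.4 CPM and to 7.32 to 9.54 CPM, respectively, and CD3E was at 0 throughout. The part of these markers in the results below was not tested.

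The replication genes differed little in level between shIER5L and shScramble cells, and the differences mostly pointed down. Of the 51 genes, 39 were lower and 12 higher in shIER5L, that is 76.5% lower against 49.4% of the 16959 genes tested. Their median log2 fold change was -0.07, and the single genes ran from -0.34 (RNASEH2C) to 0.11 (RFC1). The median of all genes tested was 0.00206. ORC3, a subunit of the origin recognition complex, and MCM4, a subunit of the MCM2-7 ring, fell with an adjusted p under 0.05, which is 3.92% of the genes of the list against a background of 1.46% of all genes tested that were lower at this threshold. No replication gene rose at this threshold, which 2.46% of all genes passed upward and 3.93% in either direction. At the unadjusted p of 0.05, 13 were lower (25.5%, against a background of 6.78%) and 0 were higher (background 9.69%). In 9 of them (17.6%, background 4.61%) all 4 shIER5L samples were below all 4 shScramble samples, and in 0 of them (background 6.33%) all were above. None reached the study's threshold for a differentially expressed gene, an adjusted p under 0.05 together with a log2 change of 0.5 or more in size, which 134 genes (0.79%) did. The 95% interval of the log2 fold change lay within 0.5 on either side of 0 for 50 of the 51, the exception being RNASEH2C, so that larger differences were not seen for these 50 at this depth. Their standard errors had a median of 0.0572, against 0.109 for all genes tested, and their median level was 86.0 CPM against 13.1.

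**Figure D1:**
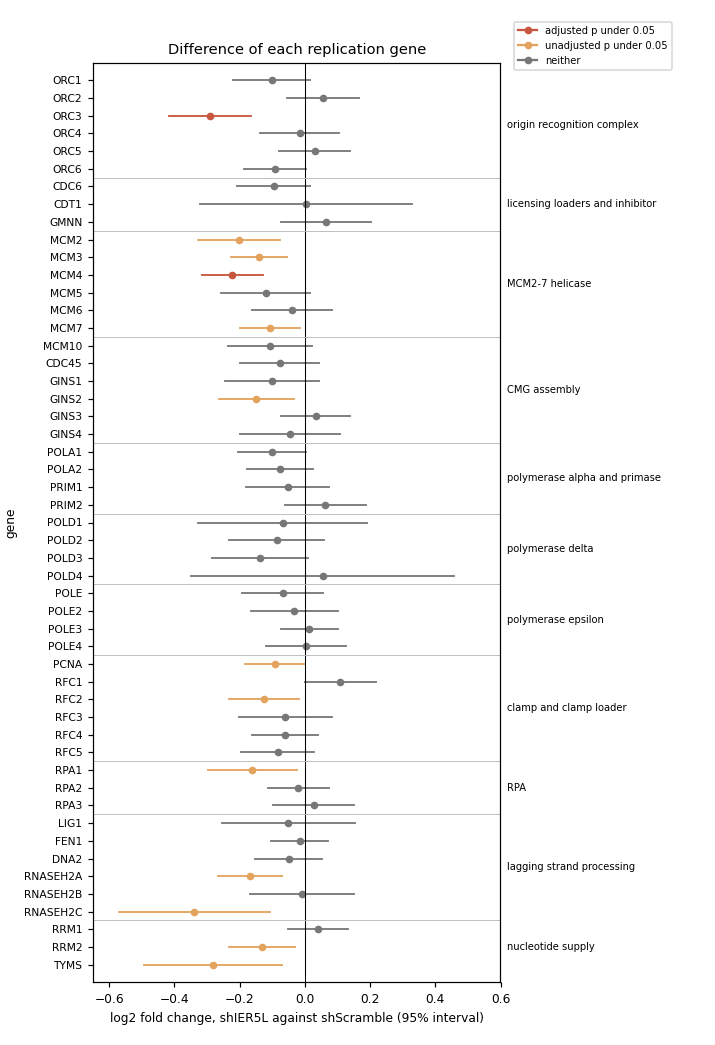
Log2 fold change of the 51 replication genes, shIER5L against shScramble (4 samples each), on the horizontal axis, with the genes on the vertical axis grouped by subcomplex. Points are the estimates of edgeR's fit and lines their 95% intervals, and the 2 genes with an adjusted p under 0.05, ORC3 at -0.29 and MCM4 at -0.22, are in red, with 39 of the 51 points left of 0.

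Sample by sample, the lower values did not weigh equally. Each gene was compared with its mean over the shScramble samples on the log2(CPM + 0.5) scale, and the median of these deviations over the 51 genes was 0.03, -0.03, -0.01 and 0.00 in shScramble replicates 1 to 4. In shIER5L replicates 1 to 4 it was -0.03, -0.14, -0.05 and -0.06. The lowest value belonged to shIER5L replicate 2, with 42 of 51 genes below the shScramble mean, and replicate 1 of shIER5L, with 34 genes below, overlapped replicate 2 of shScramble, with 37 below. The summed CPM of the 51 genes gave 6517, 6279, 6446 and 6382 in shScramble and 6211, 5861, 6167 and 6118 in shIER5L. By this sum, to which the most abundant genes contribute most, every shIER5L sample was below every shScramble sample.

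**Figure D2:**
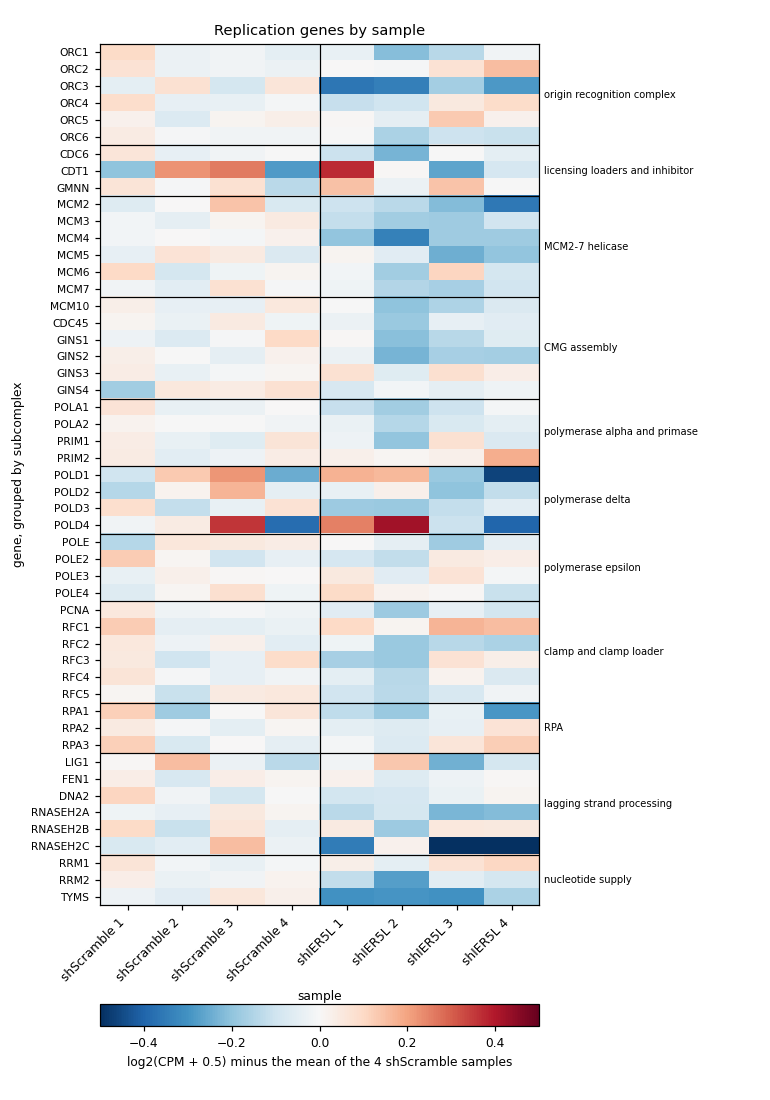
Deviation of each of the 51 replication genes (vertical axis, grouped by subcomplex) in each of the 8 samples (horizontal axis) from the mean of the 4 shScramble samples, as colour, on the log2(CPM + 0.5) scale. Blue is lower and red higher, and the colour scale ends at 0.5 in either direction. The rows of ORC3, MCM2, MCM3, MCM4, RNASEH2A and TYMS are among those blue in all 4 shIER5L samples.

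Levels per length set the genes apart far more than silencing did. In shScramble cells the mean level per kilobase of exon (RPKM) ran from 1.90 for POLD4 to 184.3 for PCNA, a range of 97.0-fold. FEN1 (111.5 RPKM), MCM7 (101.8), POLE3 (97.8), RPA2 (96.8) and RRM1 (88.1) followed PCNA, while CDT1 (3.21), TYMS (3.62), LIG1 (2.81) and RNASEH2B (3.67) stood near the lower end. Subunits of one complex differed as well: within the MCM2-7 ring, which holds one copy of each subunit, MCM5 was at 9.24 RPKM, MCM4 at 38.8, MCM6 at 50.5, MCM2 at 56.4 and MCM3 at 73.6. These levels divide by all annotated exon bases of a gene, so that a gene with long exons that PC3 cells do not use is understated.

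**Figure D3:**
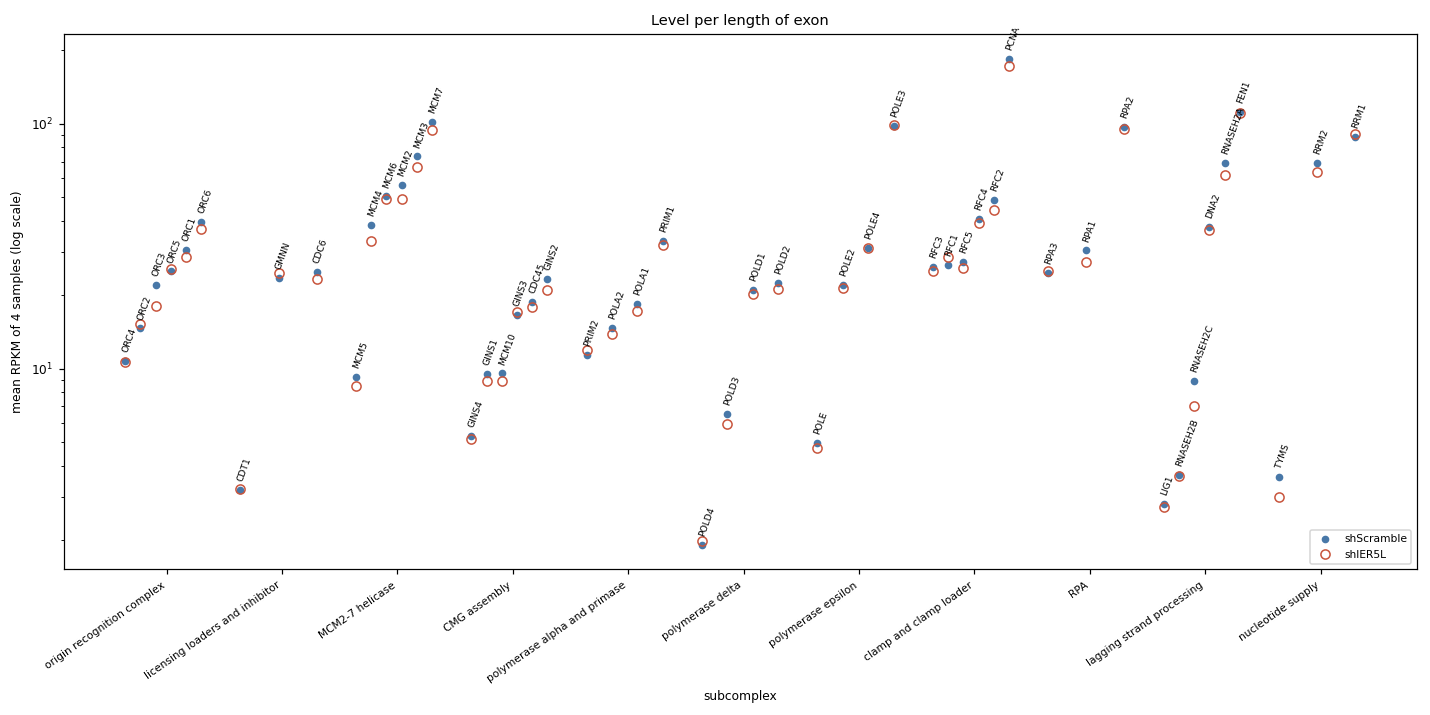
Mean level per kilobase of exon (RPKM, log scale, vertical axis) of the 51 replication genes by subcomplex (horizontal axis), in shScramble (filled) and shIER5L (open), each the mean of 4 samples. The levels span from 1.90 (POLD4) to 184.3 (PCNA) in shScramble, and the open and filled symbols of a gene nearly coincide.

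In the origin recognition complex, which marks origins and recruits the loaders, ORC3 was the subunit that passed the test. ORC3 (ENSG00000135336, hg38 chromosome 6, 87590067 to 87667453, plus strand) was at 78.4, 85.6, 76.4 and 84.6 CPM in the 4 shScramble samples, given here and from now on in the order of replicates 1 to 4, and at 63.1, 63.9, 72.1 and 66.4 CPM in shIER5L. The 2 groups did not overlap. It fell by 18.3%, and its log2 fold change of -0.29 had an SE of 0.0589 and an edgeR adjusted p of 0.0102. When single samples were dropped, the change ran from -0.34 to -0.27, with adjusted p-values between 0.00795 and 0.0486. No exon of another gene overlaps those of ORC3 in the annotation used. The other 5 subunits did not pass the test: ORC1 had a log2 fold change of -0.10, ORC6 of -0.09, ORC4 of -0.02, ORC5 of 0.03 and ORC2 of 0.06, and the median of the 6 was -0.05. ORC6, the smallest subunit, came nearest with an unadjusted p of 0.0548.

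The 3 genes that govern loading of the helicase gave no difference past the test. CDC6, the ATPase that joins ORC to load MCM2-7, was at 133, 124, 126 and 127 CPM in shScramble and 118, 108, 127 and 123 CPM in shIER5L, with a log2 fold change of -0.10 (edgeR, unadjusted p = 0.0903). CDT1, the second loading factor, differed more between samples of a group than between the groups, at 9.10, 12.4, 12.7 and 8.56 CPM against 13.8, 10.6, 8.70 and 9.91 CPM, and its 95% interval reached from -0.32 to 0.33. GMNN, which encodes geminin, had a log2 fold change of 0.07. The ratio of CDT1 to GMNN per kilobase was 0.137 ± 0.0241 (SD, n = 4) in shScramble and 0.132 ± 0.0245 (SD, n = 4) in shIER5L.

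All 6 subunits of the MCM2-7 helicase were lower in shIER5L, with a median log2 fold change of -0.13, and 4 of the 6 had an unadjusted p under 0.05. Of all genes tested 49.4% were lower, and 6.78% were lower at that threshold. MCM4 (ENSG00000104738, chromosome 8, 47960185 to 47978160, plus strand) was at 262.3, 265.0, 262.5 and 268.3 CPM in shScramble and at 230.6, 209.2, 233.8 and 233.5 CPM in shIER5L. Its shScramble samples lay close together and above all shIER5L samples, of which replicate 2 was the lowest. It fell by 14.3%, or -0.22 on the log2 scale (SE 0.0439, edgeR adjusted p of 0.00882), and dropping single samples gave -0.24 to -0.19, with adjusted p-values between 0.0101 and 0.0363. MCM2 was at 264, 276, 305 and 262 CPM in shScramble and 257, 251, 238 and 216 CPM in shIER5L, again without overlap. Its log2 fold change was -0.20 with an adjusted p of 0.0720 (edgeR), above the threshold. MCM3 was at 266, 260, 271 and 277 CPM against 247, 238, 237 and 251 CPM, and missed the threshold in the same way (log2 fold change -0.14, adjusted p = 0.0650, edgeR). MCM7, at 441, 430, 470 and 445 CPM against 440, 403, 397 and 418 CPM, overlapped between groups (log2 fold change -0.11, unadjusted p = 0.0253 from the same fit). MCM5 (-0.12) and MCM6 (-0.04) did not reach an unadjusted p of 0.05. The interval of MCM6 ran from -0.16 to 0.08, and without shIER5L replicate 2 its log2 fold change was 0.0036. Summed over the ring, the values were 1522, 1497, 1583 and 1526 CPM in shScramble and 1449, 1351, 1388 and 1372 CPM in shIER5L, without overlap.

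**Figure D4:**
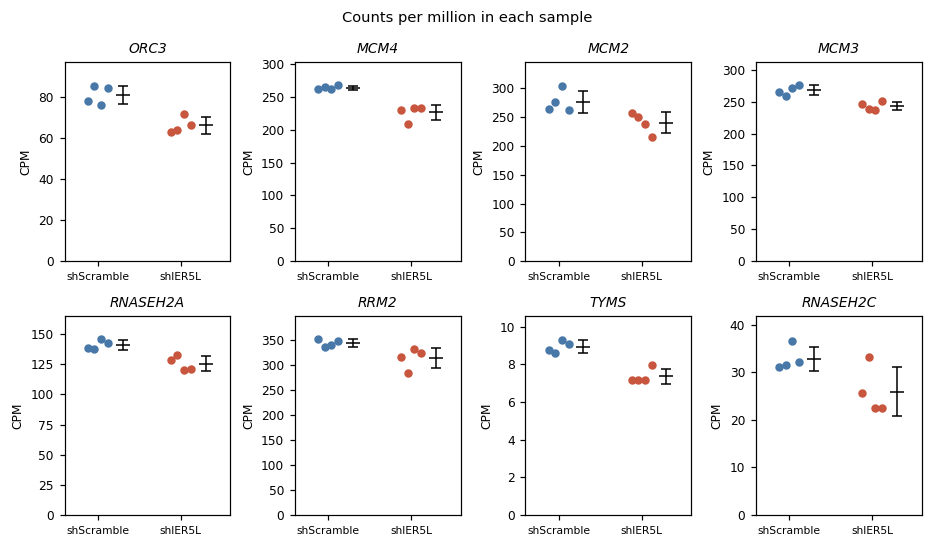
CPM in each sample (points, vertical axes starting at 0) of 8 replication genes in shScramble (blue) and shIER5L (red), with the mean and SD of 4 samples in black beside each group. The groups do not overlap for ORC3, MCM4, MCM2, MCM3, RNASEH2A, RRM2 and TYMS, while for RNASEH2C shIER5L replicate 2, at 33.2, lies among the shScramble samples.

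Among the 6 factors that convert the loaded ring into the CMG helicase, 5 were lower, against 49.4% of all genes tested. Their median log2 fold change was -0.09. GINS2, 1 of the 4 subunits of GINS, was the one with an unadjusted p under 0.05, at 77.2, 75.6, 73.4 and 76.9 CPM against 74.3, 64.4, 67.6 and 67.2 CPM (log2 fold change -0.15, unadjusted p = 0.0152 and adjusted p = 0.165, edgeR). The lower value did not extend evenly to its partners, since GINS1 was at -0.10, GINS4 at -0.05 and GINS3 at 0.03. CDC45 (-0.08) and MCM10 (-0.11), which binds the assembled helicase, did not reach an unadjusted p of 0.05 either. In shIER5L replicate 2 all 6 were below the shScramble mean, and in replicate 1 of shIER5L 4 of 6 were.

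The 12 polymerase subunits held no call. In polymerase alpha with primase, POLA1, the catalytic subunit, had a log2 fold change of -0.10 (unadjusted p = 0.0572, edgeR). POLA2 was at 84.8, 83.7, 83.7 and 82.8 CPM in shScramble and 81.8, 75.7, 79.5 and 80.8 CPM in shIER5L, which did not overlap although the change was only -0.08. The estimates of the primase subunits PRIM1 (-0.05) and PRIM2 (0.06) had opposite signs, and both intervals spanned 0. In polymerase delta the median was -0.08 on the log2 scale, and the accessory subunits POLD3 (-0.14, unadjusted p = 0.0638, edgeR) and POLD2 (-0.09) did not pass the test. POLD3 had the lowest estimate of the 12, at 37.9, 32.9, 34.9 and 37.6 CPM against 31.5, 31.3, 32.9 and 34.5 CPM, with overlap between the groups. Its partners varied widely between samples: the catalytic subunit POLD1 (-0.07) ran from 85.1 to 118 CPM in shScramble and from 73.4 to 114 CPM in shIER5L, and the small subunit POLD4 (0.05) from 4.26 to 7.42 CPM and from 4.20 to 7.77 CPM. Polymerase epsilon had a median log2 fold change of -0.01, with POLE at -0.07, POLE2 at -0.03, POLE3 at 0.01 and POLE4 at 0.00.

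The clamp PCNA and 4 of the 5 subunits of its loader were lower, against 49.4% of all genes tested. The remaining subunit had the highest log2 fold change of all 51 genes. PCNA was at 281, 267, 270 and 267 CPM in shScramble and 260, 239, 264 and 254 CPM in shIER5L, narrowly without overlap (log2 fold change -0.09, unadjusted p = 0.0471 and adjusted p = 0.293, edgeR). RFC2 was at 112, 106, 110 and 104 CPM against 106, 94.7, 97.7 and 96.4 CPM (log2 fold change -0.13, unadjusted p = 0.0235). RFC1, the large subunit, was at 194, 173, 172 and 174 CPM against 190, 180, 200 and 198 CPM, so that shScramble replicate 1 sat within the shIER5L range, and its log2 fold change of 0.11 had an unadjusted p of 0.0503 (edgeR). RFC3 (-0.06), RFC4 (-0.06) and RFC5 (-0.08) lay between. In RPA, which coats single-stranded DNA, the large subunit RPA1 was lower (181, 147, 166 and 174 CPM against 152, 146, 162 and 136 CPM, log2 fold change -0.16, unadjusted p = 0.0232 and adjusted p = 0.207), whereas RPA2 was at -0.02 and RPA3 at 0.03.

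The 6 genes that finish the lagging strand were all lower, by a median of -0.05 on the log2 scale, where 49.4% of all genes tested were lower. The larger values belonged to 2 subunits of RNase H2, which removes ribonucleotides from DNA. RNASEH2A, the catalytic subunit, was at 139, 137, 146 and 142 CPM in shScramble and 128, 133, 120 and 121 CPM in shIER5L. It was without overlap but above the threshold, at -0.17 on the log2 scale (SE 0.0468, edgeR adjusted p of 0.0575). RNASEH2C, an accessory subunit, was at 31.1, 31.6, 36.5 and 32.1 CPM against 25.6, 33.2, 22.5 and 22.4 CPM, and its replicate 2 of shIER5L was above 3 of the shScramble samples. Its log2 fold change of -0.34 had an adjusted p of 0.108 (edgeR), and without shIER5L replicate 2 these were -0.48 and 0.00461. Without the same sample RNASEH2A also came under the threshold, with an adjusted p of 0.0296, so that 4 replication genes were then lower instead of 2. Calls among all genes, in either direction, numbered 756 in that fit, against 666 in the fit of all 8 samples. Exons of KAT5 cover 30.2% of the exon bases of RNASEH2C on the opposite strand, and counting did not use the strand. The third subunit, RNASEH2B, was at -0.01, the flap endonuclease FEN1 at -0.02, the ligase LIG1 at -0.05 and the nuclease-helicase DNA2 at -0.05.

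In nucleotide supply, the estimates of the subunits of ribonucleotide reductase had opposite signs, and neither subunit passed the test. RRM2, the small subunit, whose level is known to rise in S phase, was at 352, 336, 340 and 348 CPM in shScramble and 316, 284, 332 and 324 CPM in shIER5L, with a log2 fold change of -0.13 (unadjusted p = 0.0137 and adjusted p = 0.157, edgeR). RRM1, the large subunit, was at 385, 364, 358 and 365 CPM against 375, 356, 387 and 395 CPM. Its log2 fold change was 0.04, with an interval of -0.05 to 0.13 (unadjusted p = 0.370, edgeR). The ratio of RRM2 to RRM1 per kilobase was 0.771, 0.778, 0.801 and 0.804 in shScramble and 0.710, 0.673, 0.724 and 0.690 in shIER5L, so that the ratio separated the groups, and it was not tested. TYMS, thymidylate synthase, was weakly counted, at 8.77, 8.58, 9.31 and 9.10 CPM against 7.14, 7.18, 7.16 and 7.95 CPM, without overlap and with a log2 fold change of -0.28 (unadjusted p = 0.0125 and adjusted p = 0.150, edgeR). Exons of ENOSF1 and TYMSOS on the opposite strand cover 26.2% of its exon bases, so this level is uncertain. Overlap with exons of other genes touched 21 of the 51 genes and exceeded 20% of the exon bases in 4 of them.

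Samples of one group differed along the GC content of the transcripts, and in every sample the correlation was larger in size across the replication genes than across all genes. Across the 51 genes, whose longest coding transcripts hold 37.7 to 64.3% GC (median 46.4%, against 47.1% for all genes tested), Pearson's r of the GC share with the deviation from the shScramble mean was -0.64, 0.57, 0.72 and -0.59 in the shScramble samples and 0.29, 0.43, -0.67 and -0.59 in the shIER5L samples. Over 16817 genes it kept the same sign in each sample and ran from -0.42 to 0.32. These are correlations across genes within a sample, and genes are not independent replicates. Both signs occurred among the shIER5L samples, while among the shScramble samples, which were centred on their own mean, both signs must occur. Across the 51 genes the log2 fold change itself had an r of -0.22 with the GC share. The GC-rich POLD1, POLD4 and CDT1 were high in shScramble replicate 3 and low in replicate 4. LIG1, with 60.9% GC, was low in shScramble replicate 4 (-0.13) but not high in replicate 3 (-0.03). In a fit added after the data were seen, in which a smooth GC trend was removed from each sample, 8 replication genes were lower with an adjusted p under 0.05 (15.7%, against a background of 3.66% of all genes lower in that fit) and 0 were higher (background 4.59%, and 8.24% in either direction). They were ORC3 (log2 fold change -0.34), MCM4 (-0.21), MCM2 (-0.16), MCM3 (-0.12), RNASEH2A (-0.13), RNASEH2C (-0.31), RRM2 (-0.14) and POLA1 (-0.13). The number of calls among all genes rose as well, from 666 to 1398.

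The hairpin offers a short match to some of these transcripts, shown here because silencing rests on this one sequence. As the study lists it, with an octamer in capitals that holds both heptamers searched, CATCTCA and ACATCTC, it reads:

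sh2 IER5L: gacgcgtccaACATCTCAaac

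The heptamers were picked with earlier results of these data known, and were looked for in the longest 3' UTR that GENCODE v44 annotates for each gene, which need not be the one PC3 cells use. They occurred in 8 of the 51 genes (15.7%), against 24.0% of the 12701 genes tested with a 3' UTR. The longest 3' UTRs had a median of 935 bases in the 51 genes and of 1540 bases in the 12701. The 8 genes are MCM4, GINS2, ORC4, RPA1, RNASEH2A, RNASEH2B, RNASEH2C and RRM2. All 8 were lower in shIER5L, with a median log2 fold change of -0.16, and of the 43 without a heptamer 31 were lower, with a median of -0.06. Among all genes tested with a 3' UTR, 1585 of 3052 with a heptamer were lower (median -0.01) and 4270 of 9649 without (median 0.02). ORC3 holds none, whereas MCM4 holds one in all 8 of its coding transcripts with a 3' UTR. A few of the sites follow, read 5' to 3' on the transcript's strand of hg38, with the match in capitals:

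RNASEH2A, chr19:12807538-12807544, plus strand: ccccatttggtCATCTCAggataaaatgg

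RNASEH2C, chr11:65717920-65717926, minus strand: tgagtggcttcACATCTCttggtcagtgt

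GINS2, chr16:85676402-85676408, minus strand: acttgttctttCATCTCAgccttccttgg

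ORC4, chr2:147934951-147934958, minus strand: ttttcttctagACATCTCAaaatgtggtac

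ORC4, the one with the full octamer, was at -0.02, RNASEH2C, whose site is in 1 of 2 annotated 3' UTRs, at -0.34, and RNASEH2B, with a site in 2 of 22, at -0.01. The part of these sites in the differences was not tested.

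Promoters, from 250 bases before to 50 bases after the start of transcription, were available for 44 of the 51 genes (RefSeq, GRCh38.p14), and not for MCM4, MCM5, GINS4, POLD3, RPA2, RPA3 and DNA2. E2F letters, searched on both strands as TTTCCCGC, TTTCGCGC, TTTGCCGC and TTTGGCGC, were present in 19 of 44 (43.2%) against 3.33% of the 27305 promoters in the table and 5.23% of the 11407 that belong to genes tested. CCAAT, the letters bound by NF-Y, stood in 26 of 44 (59.1%, against 35.7% and 36.8%), and TTTGAA, the CHR element of genes expressed late in the cycle, in 1 of 44 (2.27%, against 15.4% and 10.2%), which was RRM1. In the windows shown, the first match lay between -152 (MCM6) and 7 (CDC6) bases from the start of transcription. A few windows follow with the E2F letters in capitals, overlapping matches on both strands merged, given 5' to 3' on the gene's strand:

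MCM2, chr3:127598405-127598432, plus strand: gaaccactTTTCGCGCGAAAcctggttg

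MCM6, chr2:135876576-135876603, minus strand: gctttgcaTTTGGCGCGAAAtccctttc

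CDC6, chr17:40287878-40287901, plus strand: cattcggaTTTGGCGCgagcgcgg

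PCNA, chr20:5126666-5126689, minus strand: cgtcagggGCGGGAAAaggcgtgc

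ORC3, chr6:87590115-87590138, plus strand: gagggcgcGCGGGAAAtcccgagt

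TYMS, chr18:657606-657629, plus strand: ggacggccGCGGGAAAaggcgcgc

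Of the genes with E2F letters 16 of 19 were lower (median log2 fold change -0.09) and of those without 17 of 25 (median -0.06). For CCAAT these were 21 of 26 with (median -0.09) and 12 of 18 without (median -0.04). For the CHR letters, RRM1 was at 0.04, and 33 of 43 without them were lower (median -0.08). Among the genes whose windows are shown, ORC3 was at -0.29, TYMS at -0.28, MCM2 at -0.20, CDC6 at -0.10, PCNA at -0.09 and MCM6 at -0.04. A match of letters is a description of the window and does not show that a factor binds there.

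Outside the 51 genes, 73 others of the pathway were read from the same fit, and 3 fell with an adjusted p under 0.05 (4.11%, against a background of 1.46%) while 0 rose (background 2.46%). RBL1, which encodes the pocket protein p107 and is itself a target of E2F, was at 95.1, 92.5, 96.4 and 96.6 CPM in shScramble and 71.2, 67.3, 77.4 and 78.5 CPM in shIER5L, a log2 difference of -0.37 (SE 0.0556, edgeR adjusted p of 0.00107). In the fit of all 8 samples this estimate was below that of each of the 51 genes, and RBL1 was the one call among 13 E2F and pocket protein genes, of which 9 were lower and 4 higher. SUPT16H, a subunit of the FACT histone chaperone, fell from 703.7 ± 24.0 to 614.4 ± 28.8 CPM (SD, n = 4 each, log2 fold change -0.20, adjusted p = 0.0160, edgeR), as the one call among 12 genes of chromatin assembly at forks, 10 of them lower. Its adjusted p rose to 0.0618 without shScramble replicate 4. CLSPN, which encodes the fork and checkpoint factor claspin, fell from 109.2 ± 5.80 to 93.7 ± 5.29 CPM (SD, n = 4 each, log2 fold change -0.22, adjusted p = 0.0328, edgeR), the one call among 21 origin firing and fork factors, of which 12 were lower and 9 higher. That call held in 1 of the 8 fits that left out a sample, the one without shIER5L replicate 1, with adjusted p-values up to 0.0984. Of 15 further genes of nucleotide supply 12 were lower and 3 higher, and of 12 genes of CDT1 turnover and S phase entry 7 were lower and 5 higher, with 0 calls in either list. At an unadjusted p under 0.05 (edgeR), 4 of the 15 were lower and 0 higher, and 1 of the 12 was lower and 1 higher, where 6.78% of all genes were lower and 9.69% higher.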

How the data were processed

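The authors deposited 1 table of raw counts, reads per gene without normalization, 8 samples in 1 column each, assigned by the column names. In the labels, the name of shScramble replicate 3 ends in another digit than the names of the other shScramble samples. What this digit stands for is not known here. Per the labels, reads were aligned to hg38 with STAR 2.7.5c, duplicates were removed with SAMtools 1.15 and reads were counted with featureCounts 2.0.3, whose command carries no strand option and counts the reads of a pair singly. Among counts from 1 to 20 a median of 65.6% were even, so independent fragments are fewer than counts. The labels name an mRNA kit and the paper a ribosomal depletion kit. The table also gives the exon length in bases used for RPKM.

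Computed here: genes were filtered with filterByExpr (16959 kept, all 51 among them), TMM factors were computed and the groups compared by the quasi-likelihood test (glmQLFit, glmQLFTest) of edgeR 4.0.16 in R 4.3.3, group as the only term, Benjamini-Hochberg adjustment over all genes tested. SEs were obtained by dividing the size of the log2 difference by the root of the F statistic. The fits were tested on simulated data. Samples of a group correlated at 0.988 to 0.992, and every pair differed beyond sampling noise. The members, lists and heptamers were chosen with earlier results of these data known. All members were named, with full statistics for those with an adjusted p under 0.05 and values for those with an unadjusted p under 0.05, and from the other lists only genes with an adjusted p under 0.05, at most 4 a list. Alternatives were RLE and total count scaling, no filter, a CPM of at least 1 in 4 samples, DESeq2 1.42.0, limma 3.58.1 voom, a replicate block, counts halved and each sample left out. The GC fit (lowess, span 0.3, on the longest coding transcript) was added after the data were seen.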

Additional observations from a re-analysis of the deposited data

Results flagged for a closer look

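In 10 of 104 groups of 4 samples, taken over the 51 replication genes and IER5L, the highest or lowest sample stood apart from the other 3 by more than Dixon's 95% limit, where chance alone flags about 1 in 20 groups. Most touched was shScramble replicate 1: ORC2 at 89.5 CPM and RFC1 at 194 CPM were its high values, GINS4 at 25.6 CPM and POLE at 74.9 CPM its low ones. In shScramble replicate 2, ORC5 was low at 88.5 CPM and FEN1 at 261 CPM. In shIER5L replicate 2, MCM4 was low at 209 CPM and RNASEH2B at 28.9 CPM. In shIER5L replicate 4, PRIM2 was high at 60.4 CPM and TYMS at 7.95 CPM, the latter still below all shScramble samples. Of the 2 called genes only MCM4 is touched, and without shIER5L replicate 2 its log2 fold change was -0.19.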

How the results depend on the processing

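The fall of ORC3 and of MCM4 held its direction and an adjusted p under 0.05 in all 17 alternatives, of which 8 left out 1 sample, and the count of higher replication genes stayed at 0. Their median log2 fold change ran from -0.09 to -0.07 (-0.09 to -0.06 with a sample left out). The number of lower replication genes was 4 with RLE scaling, total count scaling, a CPM of at least 1 in 4 samples and counts halved, 7 without a filter, 6 with DESeq2 and 8 with the GC trend removed, and ran from 2 to 4 with a sample left out (4 without shIER5L replicate 2). Counts of all genes with an adjusted p under 0.05, in either direction, were 666 in the fit of all 8 samples. In the 9 alternatives that kept every sample these counts ran from 649 (RLE scaling) to 1398 (GC trend removed). They also rose with DESeq2, and without a filter, where more genes were tested. They rose less with total count scaling, the CPM filter and counts halved. Apart from the GC fit, the share of all genes that were lower was not computed for these alternatives. With a sample left out the counts ran from 305 to 756. They were 341 without shScramble replicate 2, 305 without 3, 434 without 4, and 358 without shIER5L replicate 3. Differentially expressed genes numbered 86 to 135 with a sample left out, 86 without shScramble replicate 3. In the other pathway lists 6, 5 and 13 genes were lower without a filter, with DESeq2 and with the GC trend removed, 1 to 3 with a sample left out (1 without shScramble replicate 4), and 1 was higher without a filter and 1 with the replicate block. The cause was not tested.

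Single genes that changed sign all had adjusted p-values far above 0.05. CDT1 was at -0.0057 with RLE scaling, -0.016 with total count scaling, -0.012 without a filter, -0.013 with the CPM filter, -0.0042 with DESeq2, -0.0040 with limma voom and -0.0093 with counts halved. POLE4 was at -0.0050, -0.014, -0.011, -0.013, -0.0051 and -0.0033 under the same settings in that order, voom excepted, and POLE3 at -0.0041 with total count scaling, -7.91e-05 without a filter and -0.0027 with the CPM filter. Removing the GC trend put ORC5 at -0.0089 and FEN1 at 0.0095. With single samples left out, CDT1 ran from -0.14 to 0.099, POLD4 from -0.093 to 0.20, POLD1 from -0.15 to 0.043, ORC4 from -0.053 to 0.015, ORC5 from -0.012 to 0.055, MCM6 from -0.099 to 0.0036, POLE2 from -0.066 to 0.0091, POLE3 from -0.012 to 0.036, POLE4 from -0.030 to 0.039, RPA3 from -0.0069 to 0.066, LIG1 from -0.12 to 0.0039, FEN1 from -0.042 to 0.00031 and RNASEH2B from -0.045 to 0.047.

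Groups shared replicate numbers, but deviations of same-numbered samples correlated at -0.048, 0.098, -0.041 and 0.144, and 1 of 4 shIER5L samples correlated best with its own number, so the numbers were not taken to pair the samples. With the replicate block 3 replication genes were lower, MCM2 being added with an adjusted p of 0.0353 (edgeR), and 655 genes in all had an adjusted p under 0.05. POLD4, CDT1, TYMS and LIG1 had the fewest counts, and their log2 fold changes had SEs of 0.190, 0.154, 0.0999 and 0.0959. With the GC trend removed these SEs were 0.153, 0.110, 0.0998 and 0.0806. POLD1, which was better counted, had an SE of 0.122, and of 0.0502 with the GC trend removed. The part of depth in these SEs was not tested.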
